A study of Mus musculus with 20 samples.

Results

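Glul, Oat, Slc1a2, Gulo, Rgn, Lhpp, Axin2, Lgr5, Tbx3 and Cyp2e1 are used as markers of pericentral hepatocytes, the liver cells around the central vein, or as targets of Wnt signalling. Bulk RNA does not show where in the lobule a gene is expressed, so this label is taken from background knowledge. These 10 genes were picked by name, and each was found once among the 49315 genes of the deposited expression table. The table holds liver RNA sequencing of mice of the DIO NASH model (obesity and steatohepatitis brought about by diet), all fed the AMLN diet, which is rich in fat, fructose and cholesterol. One group of 10 mice received S217879 by mouth (30 mg/kg, once daily), and the other 10 received only the vehicle, 1% hydroxyethylcellulose (HEC), each for 8 weeks. S217879 is described in the series title as a disruptor of the complex of NRF2, a transcription factor of antioxidant defence, with KEAP1, which otherwise holds NRF2 down. Strain, sex and age of the mice were not stated in the labels. Both groups had the diseased liver that the diet produces, and no livers of healthy mice were analysed here, so every difference is between treated and untreated diseased livers. Each library is 1 separately numbered animal.

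Hepatocytes divide their work along the path of blood from the portal tract to the central vein. Endothelial cells of the central vein release the ligands Wnt2 and Wnt9b and the amplifier Rspo3, which act on frizzled receptors and LRP co-receptors of the hepatocytes next to them. Beta-catenin then enters the nucleus, binds TCF/LEF factors and keeps pericentral genes on, among them glutamine synthetase, which in healthy liver is confined to the last few cells before the vein. Pericentral hepatocytes take up glutamate, catch leftover ammonia as glutamine and carry much of the cytochrome P450 metabolism, whereas urea synthesis and gluconeogenesis lie mostly on the periportal side.

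Values are in TPM, a length-scaled share of each library, so that levels of different genes can be set side by side, but they do not tell how many reads a value rests on. Each library summed to 1000000 and had 24659 to 27744 genes above 0. The hepatocyte gene Alb averaged 29160 ± 4509 TPM in S217879 livers and 33780 ± 8325 TPM in vehicle livers (SD, n = 10 each). A set of 4 genes of ribosomal RNA type (Gm23935, Gm24270, Gm42418 and Mir6236) took 14.1% to 38.1% of the TPM in S217879 libraries and 17.4% to 31.4% in 8 vehicle libraries, but 58.2% and 50.7% in vehicle replicates 6 and 7. The share left for other genes was smaller there, and these were the lowest or nearly the lowest vehicle values of most markers. Results that this touches are therefore also given after median-of-ratios scaling, which divides each library by 1 common factor, here called scaled values.

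The members lie on 8 chromosomes, at these positions in GRCm38 (GENCODE M21), and each is annotated as protein-coding. Glul spans chr1:153899944-153909723 (plus strand), Slc1a2 chr2:102658659-102790784 (plus), Tbx3 chr5:119670669-119684724 (plus) and Lgr5 chr10:115450311-115587780 (minus). Axin2 spans chr11:108920349-108950783 (plus), Gulo chr14:65986786-66009207 (minus) and Rgn chrX:20549787-20562089 (plus). Oat (chr7:132557478-132576398, minus), Lhpp (chr7:132610638-132706420, plus) and Cyp2e1 (chr7:140763739-140774987, plus) share chromosome 7, and Oat and Lhpp lie 34.2 kb apart and point away from each other. Exons of Glul, Axin2, Slc1a2 and Tbx3 overlap a gene on the opposite strand by 116 bases (Teddm2), 209 bases (Gm11670), 189 bases (Gm13872) and 115 bases (Tbx3os1). Neither labels nor processing notes say whether counting used the strand, so reads of these stretches cannot be assigned with certainty.

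RefSeq promoter sequences (GRCm38.p6, the 250 bases before the annotated start) were at hand for 5 of the 10 members, Glul, Oat, Cyp2e1, Axin2 and Slc1a2. They were searched for CTTTGA, the core to which TCF/LEF factors bind, on either strand (TCAAAG on the other), and for TGACNNNGC, the core of the antioxidant response element bound by NRF2 (GCNNNGTCA on the other strand). The promoters of Axin2, a direct Wnt target, of Glul, of Slc1a2 and of Cyp2e1 are shown because they set the windows with and without the TCF/LEF letters side by side. All are written 5′ to 3′ on the gene strand, with matches to CTTTGA or TCAAAG in capitals. The windows are chr11:108920099-108920348 (Axin2), chr1:153899679-153899928 (Glul), chr2:102706188-102706437 (Slc1a2) and chr7:140763569-140763818 (Cyp2e1), all on the plus strand.
Axin2: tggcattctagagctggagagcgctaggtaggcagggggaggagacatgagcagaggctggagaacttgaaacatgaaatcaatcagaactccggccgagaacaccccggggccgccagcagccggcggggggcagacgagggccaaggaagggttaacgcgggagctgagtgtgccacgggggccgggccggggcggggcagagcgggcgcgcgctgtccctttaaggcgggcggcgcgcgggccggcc
Glul: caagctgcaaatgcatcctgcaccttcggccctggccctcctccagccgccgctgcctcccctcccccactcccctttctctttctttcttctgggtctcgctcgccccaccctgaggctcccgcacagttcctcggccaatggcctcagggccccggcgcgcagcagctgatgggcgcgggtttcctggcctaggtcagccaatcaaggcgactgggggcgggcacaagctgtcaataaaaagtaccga
Slc1a2: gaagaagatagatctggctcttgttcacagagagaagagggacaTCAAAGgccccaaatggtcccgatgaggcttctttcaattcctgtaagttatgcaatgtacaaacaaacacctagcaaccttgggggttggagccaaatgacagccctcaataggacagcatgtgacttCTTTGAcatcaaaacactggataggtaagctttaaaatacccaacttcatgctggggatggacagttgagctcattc
Cyp2e1: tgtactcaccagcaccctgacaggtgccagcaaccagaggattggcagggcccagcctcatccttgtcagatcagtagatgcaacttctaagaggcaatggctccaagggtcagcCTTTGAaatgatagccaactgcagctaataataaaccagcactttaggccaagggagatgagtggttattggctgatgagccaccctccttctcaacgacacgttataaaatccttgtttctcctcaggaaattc

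The Slc1a2 window held 2 matches, TCAAAG from 206 to 201 bases before the start and CTTTGA from 77 to 72 bases before it. The Cyp2e1 window held 1, from 135 to 130 bases before the start, together with a TATAAA box. Neither Axin2 nor Glul held the letters within these bases, nor did Oat. CTTTGA or its complement stood in 13.83% of all 32851 promoters of the same length, and TGACNNNGC in 10.16% of them and in none of the 5 members. The Axin2, Glul and Oat windows were rich in G and C (69.2%, 64.8% and 60.0%, with 24, 15 and 14 CpG pairs), against 44.8% and 1 pair for Slc1a2, 48.8% and 2 pairs for Cyp2e1, and a median of 52.4% and 6 pairs over all promoters. RefSeq starts Slc1a2 inside the GENCODE gene, and part of the Cyp2e1 window lies inside that gene by GENCODE, so that each window belongs to 1 of several annotated starts.

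After 8 weeks of S217879, most of the pericentral and Wnt target markers were lower than with vehicle. Of the 9 members that reached the minimum mean of 1 TPM, 7 were lower, 0 were higher and 2, Cyp2e1 and Tbx3, did not pass the test (limma on log2(TPM + 0.5), Benjamini-Hochberg adjusted p under 0.05 over 13401 genes). At an unadjusted p under 0.05, and with a Wilcoxon rank-sum test, again 0 members were higher and 7 lower. Over all genes tested, 23.5% were called lower and 6.07% higher. The median log2 difference of the 9 members was -0.66, beside -0.12 for all 13401 genes. With scaled values 7 of the 9 were again lower and 0 higher, where 27.1% of all genes were called lower and 26.6% higher, and the members' median was -0.54 beside -0.01 for all genes. Lgr5, the member under the minimum, was tested in a fit with a minimum of 0.1 TPM. In bulk liver, fewer cells of a type and less RNA of a gene per cell cannot be told apart.

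**Figure D1:**
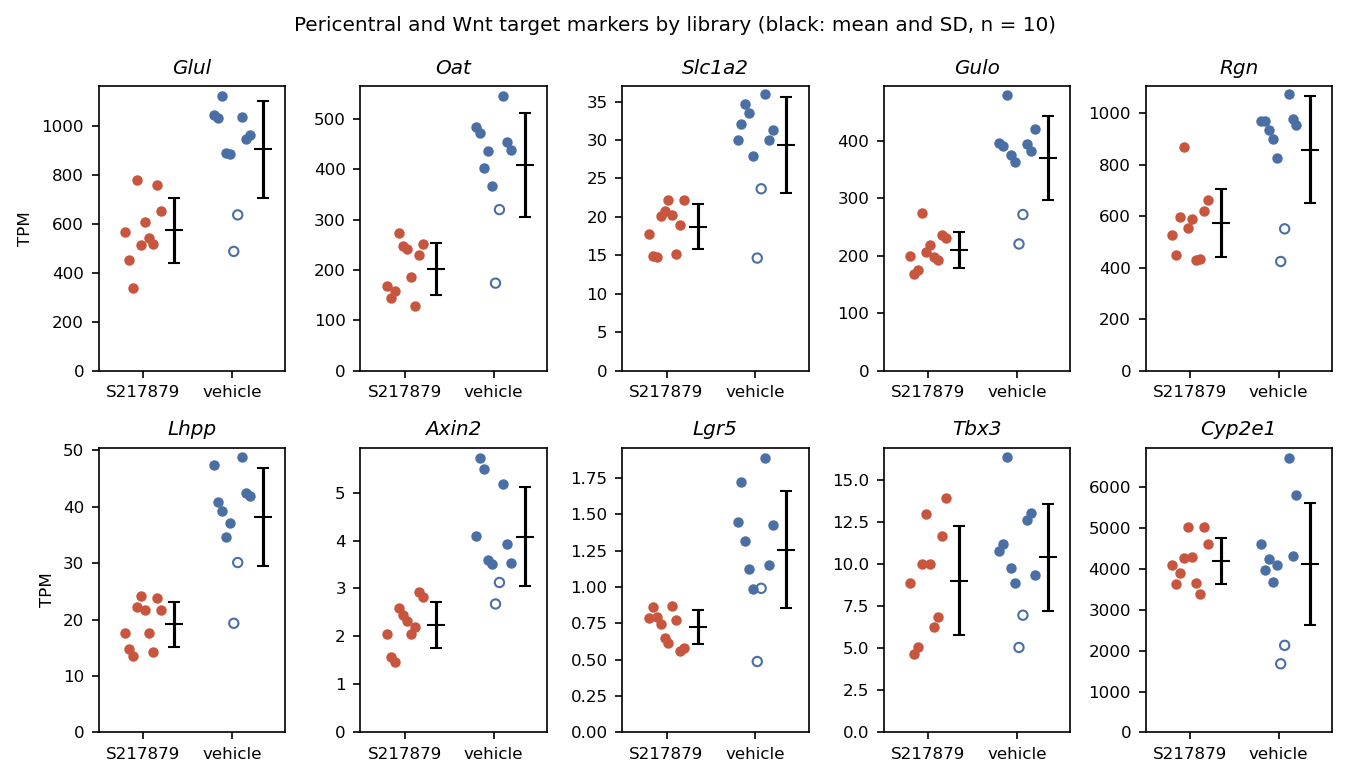
Levels of the 10 members in TPM, with S217879 livers on the left and vehicle livers on the right of each panel, 1 point per library. Open circles are vehicle replicates 6 and 7, and black bars show the mean and SD (n = 10). For Oat, Slc1a2, Lhpp, Axin2 and Lgr5, 9 of 10 vehicle points lie above every S217879 point. The Tbx3 points of both groups cover almost the same range, and the Cyp2e1 points with S217879 lie within the wider vehicle range.

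Glul, Oat and Slc1a2 belong to the handling of glutamate and nitrogen. Glul encodes glutamine synthetase, which joins ammonia to glutamate and is the sharpest marker of the cells at the central vein. It ranged over 339.0, 555.5 and 779 TPM (lowest, median and highest library) in S217879 livers and over 488, 957 and 1125 TPM in vehicle livers. All 10 S217879 livers lay below the vehicle median, and 8 of 10 vehicle livers lay above the highest S217879 liver, the exceptions being vehicle replicates 6 and 7. Glul averaged 574 ± 134 TPM with S217879 and 906 ± 198 TPM with vehicle (SD, n = 10 each), 1.58-fold lower (log2 difference -0.66, SE 0.15, limma adjusted p = 9.41e-04). With scaled values the groups no longer overlapped, at 388 to 710 in S217879 livers and 714 to 1008 in vehicle livers.

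Oat, ornithine aminotransferase, moves an amino group between ornithine and glutamate in mitochondria and is expressed with Glul at the central vein. Its lowest, median and highest values were 128, 208 and 273.5 TPM in S217879 livers, against 174, 437 and 544 TPM in vehicle livers. The highest S217879 liver lay below 9 of 10 vehicle livers, and only vehicle replicate 6 fell among the S217879 values. Oat had the largest difference of the members, 203 ± 51.5 TPM with S217879 and 409 ± 103 TPM with vehicle, 1.996-fold lower (log2 difference -0.997, SE 0.17, limma adjusted p = 2.44e-05). Of all genes, 1.53% were called lower at 2-fold or more, a size that none of the 10 members reached on the log2(TPM + 0.5) scale.

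Slc1a2, known in brain as the glutamate transporter GLT-1, carries glutamate into the cell. It stood at 14.8, 19.6 and 22.3 TPM (lowest, median, highest) in S217879 livers and at 14.7, 30.6 and 35.95 TPM in vehicle livers. The lowest value of all belonged to vehicle replicate 6, and each of the other 9 vehicle livers lay above the highest S217879 liver. Slc1a2 averaged 18.7 ± 2.91 TPM with S217879 and 29.4 ± 6.25 TPM with vehicle, a log2 difference of -0.61 (SE 0.13, limma adjusted p = 2.74e-04).

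Both members of ascorbate synthesis were lower as well. Gulo encodes gulonolactone oxidase, the last enzyme on the way to vitamin C in mice. Its values were 168, 202.5 and 275 TPM (lowest, median, highest) in S217879 livers and 220.5, 387 and 479 TPM in vehicle livers. Vehicle replicates 6 and 7 were the only vehicle livers within the S217879 range. Gulo averaged 209.9 ± 31.5 TPM with S217879 and 369.5 ± 73.4 TPM with vehicle, 1.74-fold lower (log2 difference -0.80, SE 0.13, limma adjusted p = 8.55e-06). Scaled values drew each group close together, 199 to 238 in S217879 livers and 309.5 to 430 in vehicle livers, with no overlap and a coefficient of variation of 7.28% and 9.83%.

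Rgn, regucalcin or SMP30, is the gluconolactonase that makes the substrate of Gulo. It spanned 428.5, 572 and 869.8 TPM in S217879 livers and 425, 945 and 1073 TPM in vehicle livers (lowest, median, highest). The groups overlapped at both ends, since S217879 replicate 4 reached into the vehicle values, vehicle replicate 7 lay among those of S217879 and vehicle replicate 6 below them. Rgn averaged 574 ± 132 TPM with S217879 and 859 ± 207 TPM with vehicle, 1.48-fold lower (log2 difference -0.56, SE 0.16, limma adjusted p = 0.00478). Of the 7 members called lower it had the smallest difference on the log2 scale.

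Lhpp, a phosphatase that removes phosphate from histidine residues, was also lower. Values ran over 13.6, 19.6 and 24.1 TPM (lowest, median, highest) with S217879 and over 19.3, 40.0 and 48.7 TPM with vehicle. Only vehicle replicate 6 lay among the S217879 livers. Lhpp averaged 19.1 ± 4.05 TPM with S217879 and 38.15 ± 8.62 TPM with vehicle, 1.95-fold lower (log2 difference -0.97, SE 0.14, limma adjusted p = 7.46e-07), the lowest adjusted p of the members. Scaled values did not overlap, at 14.8 to 26.3 in S217879 livers and 28.3 to 42.3 in vehicle livers. Lhpp and its neighbour Oat thus differed by nearly the same amount.

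Among the Wnt targets, Axin2 and Lgr5 were lower and Tbx3 did not pass the test. Axin2 is a scaffold of the complex that destroys beta-catenin and a feedback target of Wnt signalling in nearly every tissue. It had 1.48, 2.26 and 2.92 TPM (lowest, median, highest) in S217879 livers and 2.68, 3.76 and 5.73 TPM in vehicle livers. Vehicle replicate 6 was the only vehicle liver within the S217879 range. Axin2 averaged 2.25 ± 0.480 TPM with S217879 and 4.08 ± 1.03 TPM with vehicle, 1.66-fold lower (log2 difference -0.73, SE 0.12, limma adjusted p = 9.38e-06). Scaled, the S217879 livers spanned 1.69 to 2.83 and the vehicle livers 2.99 to 5.14.

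Lgr5, a receptor for R-spondins, marks stem cells of the gut and a band of pericentral hepatocytes in the liver. Its level was near 1 TPM, with 0.563, 0.763 and 0.871 TPM (lowest, median, highest) in S217879 livers and 0.488, 1.24 and 1.89 TPM in vehicle livers. Every S217879 liver lay below the 9 vehicle livers other than replicate 6. The means were 0.726 ± 0.114 TPM with S217879 and 1.26 ± 0.403 TPM with vehicle. In the fit with a minimum of 0.1 TPM, where 22.0% of 21416 genes were called lower and 4.69% higher, Lgr5 was lower (log2 difference -0.49, SE 0.12, limma adjusted p = 0.0036), a size that the added 0.5 TPM shrinks at such levels.

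Tbx3, a T-box repressor and beta-catenin target in the liver, had 4.65, 9.41 and 13.9 TPM (lowest, median, highest) in S217879 livers and 5.04, 10.3 and 16.3 TPM in vehicle livers. The groups covered almost the same range, and 7 of 10 S217879 livers lay below the vehicle median. Means were 9.01 ± 3.24 TPM with S217879 and 10.4 ± 3.20 TPM with vehicle, a log2 difference of -0.21 (95% interval -0.66 to 0.23, limma adjusted p = 0.487). The interval covers differences as large as that of Slc1a2, and Tbx3 passed the threshold in 1 of 34 alternatives, rescaling without the 4 rRNA-type genes.

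Cyp2e1, the cytochrome P450 that oxidises ethanol and acetaminophen, was the most abundant member. It stood at 3386, 4184 and 5032 TPM (lowest, median, highest) in S217879 livers and at 1679, 4164 and 6718 TPM in vehicle livers. Medians nearly coincided, and the vehicle livers were spread more widely, with a coefficient of variation of 36.2% against 13.6% with S217879. With scaled values these were 26.4% and 12.6%, and vehicle replicates 6 and 7 held the lowest vehicle values. Cyp2e1 averaged 4190 ± 571 TPM with S217879 and 4123 ± 1493 TPM with vehicle, a log2 difference of 0.11 (95% interval -0.25 to 0.47, limma adjusted p = 0.678). The sign of this difference turned with the scaling, and Cyp2e1 passed the threshold in 0 of 34 alternatives.

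**Figure D2:**
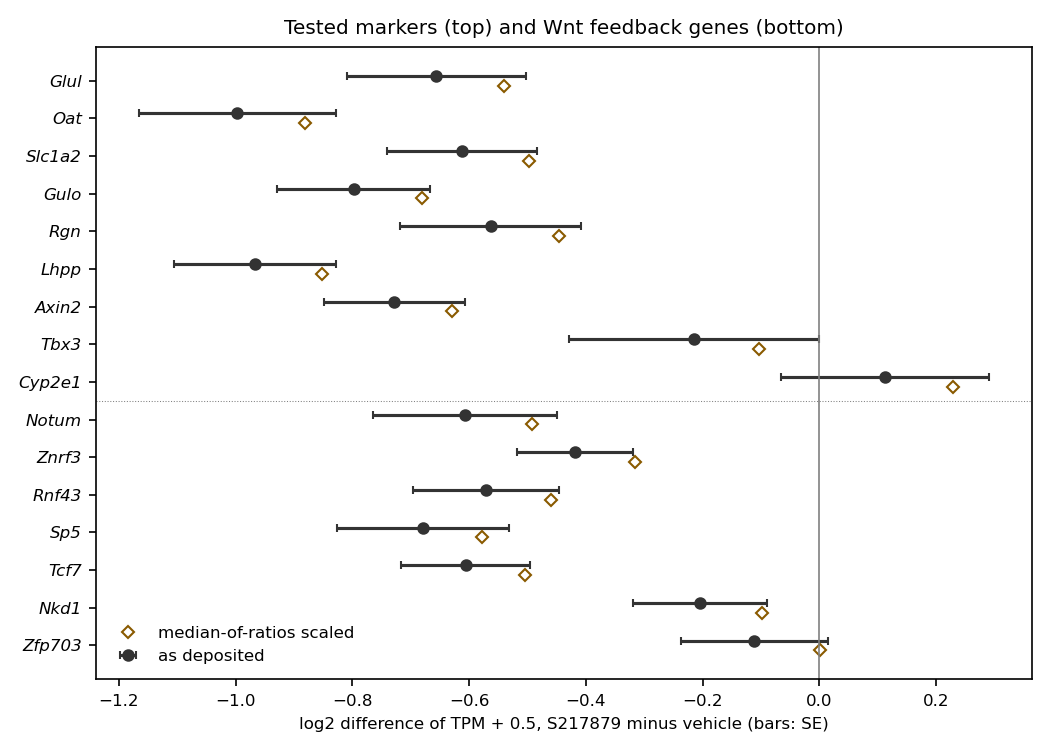
Log2 difference of TPM + 0.5, S217879 minus vehicle, for the 9 tested members above the dotted line and 7 Wnt feedback genes below it. Filled points with SE bars are values as deposited and open diamonds are scaled values (n = 10 each). Axin2, Oat and Lhpp lie well left of 0 with both, and Cyp2e1 lies right of 0 with both, a side that it changed under 5 other alternatives.

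The order of the members was nearly the same in both groups. In S217879 livers Cyp2e1 stood first by median, followed by Rgn and Glul, then Oat and Gulo, then Lhpp and Slc1a2, and last Tbx3, Axin2 and Lgr5. Within each of these 3 pairs the ranges overlapped: Rgn exceeded Glul in 4 of 10 S217879 livers, Oat exceeded Gulo in 3 and Lhpp exceeded Slc1a2 in 3. Vehicle livers had Glul before Rgn (in 7 of 10 livers), Oat before Gulo (in 8 of 10) and Lhpp before Slc1a2 (in 10 of 10).

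Ratios of 2 genes within a library do not depend on a scale factor of that library. A set of 14 such ratios was compared by permutation of the group labels (100000 resamples, two-sided, adjusted over the 14), chosen after the levels had been seen. The ratio to Cyp2e1 was lower with S217879 for Glul, Oat, Gulo, Axin2, Lgr5, Rgn, Slc1a2 and Lhpp, with adjusted p from 7e-05 to 1.4e-04 and 10 of 10 S217879 livers below the vehicle median for each. Cyp2e1 itself had a log2 difference of 0.11, beside a median of -0.12 over all genes. The ratio of a gene at that median to Cyp2e1 would thus be lower too, and such ratios were not computed for all genes. Oat to Cyp2e1 averaged 0.0480 ± 0.00859 in S217879 livers and 0.104 ± 0.0217 in vehicle livers (SD, n = 10 each), with no overlap (permutation test, adjusted p = 7e-05). Lhpp and Lgr5 relative to Cyp2e1 did not overlap between the groups either. For Tbx3 to Cyp2e1 the adjusted p was 0.074 (permutation test), with 0.00211 ± 0.000546 in S217879 livers and 0.00266 ± 0.000677 in vehicle livers. This ratio passed the threshold without S217879 replicate 10 and without vehicle replicate 8 or 10 (adjusted p = 0.03641, 0.04439 and 0.02464), 3 of 21 alternatives.

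Some pairs of lower members also differed from each other. Glul to Oat averaged 2.90 ± 0.602 in S217879 livers and 2.26 ± 0.317 in vehicle livers (permutation test, adjusted p = 0.01), so the lower level of Oat was the stronger one of that pair. Rgn to Gulo averaged 2.72 ± 0.376 with S217879 and 2.31 ± 0.267 with vehicle (permutation test, adjusted p = 0.013), and did not pass without vehicle replicates 6 and 7 together (adjusted p = 0.0515). Axin2 to Tbx3 was 0.264 ± 0.0525 with S217879 and 0.406 ± 0.0726 with vehicle (permutation test, adjusted p = 1.6e-04), which separates the differences of these Wnt targets. For Axin2 to Lgr5, 3.25 ± 1.17 with S217879 and 3.43 ± 0.863 with vehicle, the adjusted p was 0.52 (permutation test). Glul to Gls2, the periportal glutaminase that splits what Glul makes, was lower at 5.15 ± 0.967 with S217879, against 7.22 ± 1.08 with vehicle (permutation test, adjusted p = 2.4e-04).

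**Figure D3:**
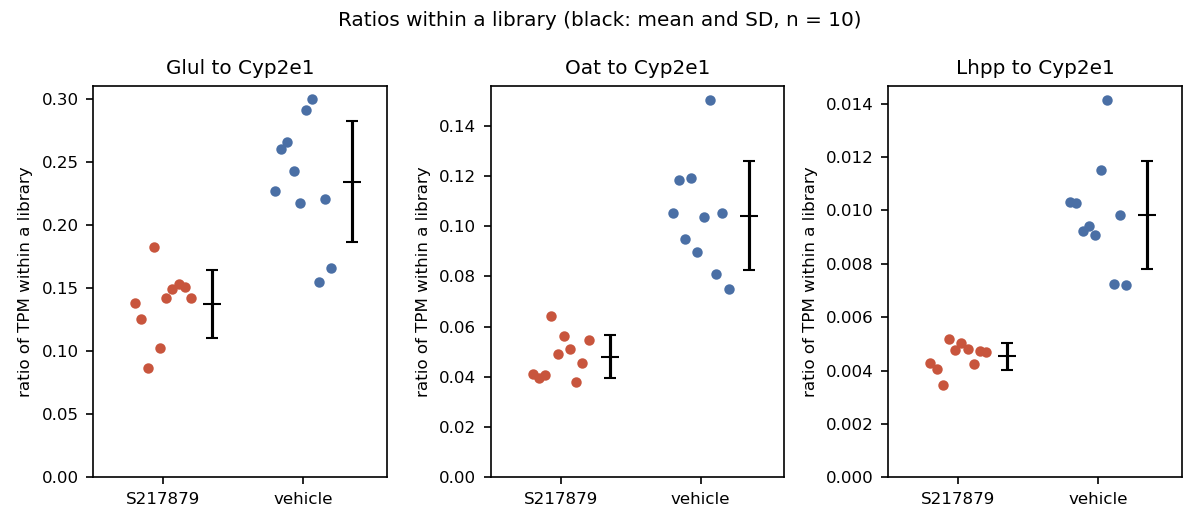
Ratio of Glul, Oat and Lhpp to Cyp2e1 within each library, S217879 livers on the left and vehicle livers on the right, with mean and SD in black (n = 10). Axes start at 0 and differ between panels. The Oat and Lhpp ratios of the groups are apart, with S217879 up to 0.0641 and vehicle from 0.0752 for Oat, and the Glul ratios overlap.

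Other feedback genes and targets of the Wnt pathway were read from a list of 21, of which 18 reached the minimum. Of these, 10 were lower and 0 higher (1 higher at an unadjusted p under 0.05, 0 with the Wilcoxon test), with a median log2 difference of -0.49. Over all genes, 23.5% were lower and 6.07% higher. Scaled values gave 10 lower and 2 higher, Cyp27a1 and Rhbg, beside 27.1% lower and 26.6% higher over all genes. Notum, an enzyme that inactivates Wnt ligands, averaged 13.1 ± 2.17 TPM with S217879 and 20.9 ± 6.34 TPM with vehicle (limma adjusted p = 0.00382). Rnf43 and Znrf3, the ubiquitin ligases that take frizzled receptors off the membrane, were lower with log2 differences of -0.57 (SE 0.13) and -0.42 (SE 0.10). The transcription factors Sp5 and Tcf7 were lower by log2 differences of -0.68 (SE 0.15) and -0.61 (SE 0.11). All 5 are read as feedback genes of the pathway in many tissues.

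Differences in the same list reached further for Ccnd1 and Ephb2. Ccnd1, cyclin D1, ranged from 8.02 to 14.8 TPM in S217879 livers and from 23.8 to 51.7 TPM in vehicle livers, without overlap (log2 difference -1.73, SE 0.12, limma adjusted p = 1.31e-14). Ephb2, an ephrin receptor and Wnt target of the gut, ranged from 0.135 to 1.40 TPM with S217879 and from 3.11 to 5.11 TPM with vehicle. It passed the minimum of 1 TPM only through the vehicle livers, so that no test of it is given. The count of lower genes in this list includes Ephb2. As deposited, 1.89% of all genes had all S217879 livers below all vehicle livers, and 0 of the 10 members did; scaled values gave 5.04% of genes and 4 members, Glul, Gulo, Axin2 and Lhpp. All S217879 livers above all vehicle livers were found for 1.84% of genes as deposited and 7.55% scaled, and for 0 members. Slc13a3, a dicarboxylate transporter, and the ribonucleases Rnase4 and Ang were lower too, although Rnase4 and Ang share a locus and their reads may be split between them. Other targets did not pass the test, with log2 differences of -0.20 for Nkd1 (SE 0.11), -0.11 for Zfp703 (SE 0.13, a sign that turned with quantile or median-of-ratios scaling), 0.35 for Myc (SE 0.34) and 0.13 for Rhbg (SE 0.12).

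As deposited, the central vein ligands themselves either did not pass the test or passed it narrowly. Of 26 genes for Wnt ligands, R-spondins and secreted modulators, 9 reached the minimum. Of the 9, 4 were lower and 0 higher, beside 23.5% lower and 6.07% higher over all genes. At an unadjusted p under 0.05 and with the Wilcoxon test 0 were higher too, and the median log2 difference was -0.25. Scaled values gave 4 lower and 0 higher, beside 27.1% lower and 26.6% higher over all genes. Wnt2, a central vein ligand, averaged 1.59 ± 0.403 TPM in S217879 livers and 1.68 ± 0.351 TPM in vehicle livers (log2 difference -0.07, SE 0.12, limma adjusted p = 0.722), a sign that turned with quantile or median-of-ratios scaling. Wnt9b, the other central vein ligand, was under the minimum with 0.534 ± 0.104 TPM in S217879 livers and 0.503 ± 0.175 TPM in vehicle livers. Rspo3 was lower as deposited, 2.94 ± 0.452 TPM with S217879 and 3.74 ± 0.791 TPM with vehicle (log2 difference -0.29, SE 0.11, limma adjusted p = 0.0484), but passed in only 11 of 33 alternatives. With scaled values, 1 of these alternatives, its log2 difference was -0.18 (limma adjusted p = 0.0064).

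Wnt4, another ligand, and the secreted modulators Dkk3 and Frzb were lower by larger amounts. Wnt4 averaged 1.957 ± 0.426 TPM with S217879 and 3.395 ± 0.741 TPM with vehicle (limma adjusted p = 1.7e-05). The log2 differences of Dkk3 and Frzb were -0.78 (SE 0.16) and -0.67 (SE 0.12).

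As deposited, receptors and signal carriers of the pathway were called lower about as often as genes at large. Of 36 such genes 30 were tested, with 7 lower and 0 higher, beside 23.5% lower and 6.07% higher over all genes. At an unadjusted p under 0.05 and with the Wilcoxon test 0 were higher too, and the median log2 difference was -0.22. Scaled values gave 11 lower and 1 higher, Lgr4, beside 27.1% lower and 26.6% higher over all genes. The co-receptor Lrp5 averaged 16.5 ± 3.15 TPM with S217879 and 26.3 ± 4.33 TPM with vehicle (log2 difference -0.67, limma adjusted p = 3.35e-05), and Tle1, a co-repressor of TCF factors, was also lower (log2 difference -0.55, SE 0.11). Ctnnb1, which encodes beta-catenin, had 85.2 ± 10.9 TPM with S217879 and 102 ± 17.3 TPM with vehicle. As deposited it did not pass the test (log2 difference -0.24, SE 0.12, limma adjusted p = 0.129). With scaled values it was lower (log2 difference -0.12, limma adjusted p = 0.0035), and it passed in 7 of 34 alternatives. The count of lower genes in this list was 20 without vehicle replicate 6, 12 without vehicle replicate 7, 26 without both and 4 without vehicle replicate 5. It was 25 when rescaled without the 20 most abundant genes, and 27 without the 4 rRNA-type genes or with array weights.

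**Figure D4:**
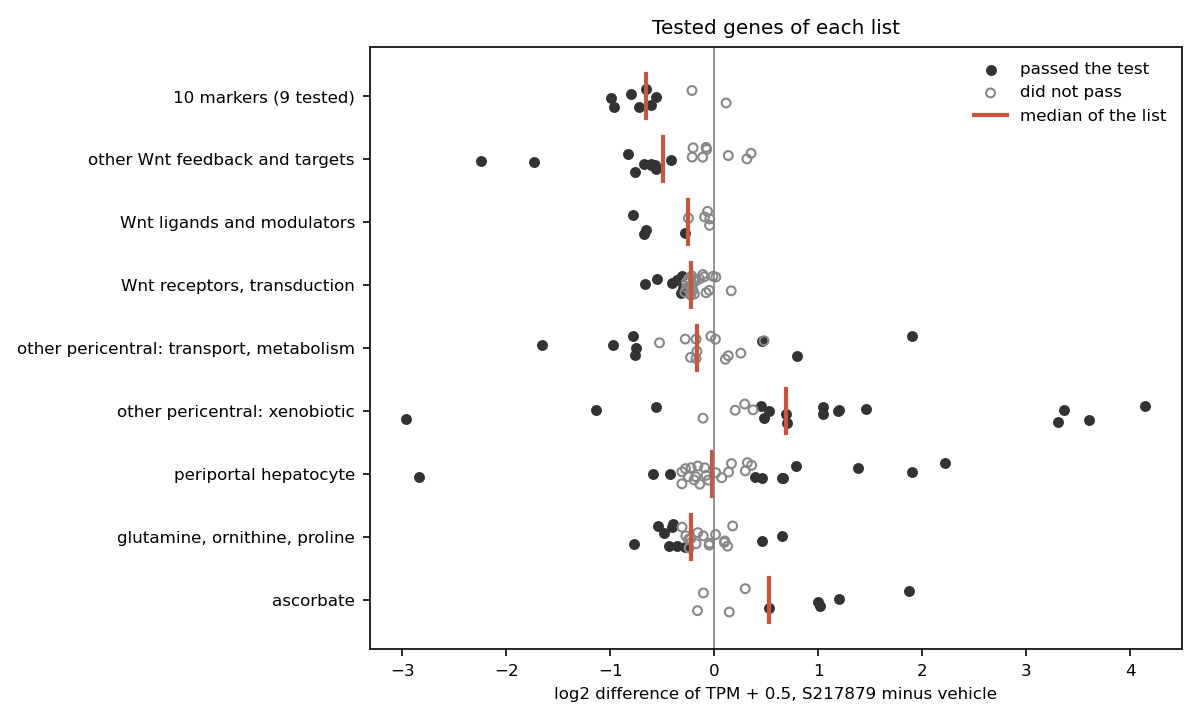
Log2 difference of TPM + 0.5, S217879 minus vehicle, of every tested gene of 9 lists, with filled points for genes past the threshold, open points for the others and a red line at the median of the list (n = 10 livers per group). The lines of the members and of the other Wnt feedback genes lie furthest left, at -0.66 and -0.49, and that of the pericentral xenobiotic genes furthest right, at 0.69.

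Other pericentral genes differed in both directions. Of 21 further pericentral genes of xenobiotic metabolism 14 were higher and 3 lower, beside 6.07% higher and 23.5% lower over all genes. Scaled values gave 17 higher and 3 lower, beside 26.6% and 27.1% of all genes. The list, which includes known NRF2 targets, had a median log2 difference of 0.69. Cyp1a2, a pericentral cytochrome P450, ranged from 611.5 to 1846 TPM in S217879 livers and from 51.0 to 239 TPM in vehicle livers (log2 difference 3.30, SE 0.25, limma adjusted p = 2.28e-09). Cyp2a5, the coumarin hydroxylase, averaged 9436 ± 1730 TPM with S217879 and 585 ± 267 TPM with vehicle (log2 difference 4.14, limma adjusted p = 1.12e-11). Gstm1, Gstm2 and Gstm3, glutathione transferases, were higher by log2 differences of 3.61, 1.19 and 3.36. Cyp2c29, Cyp2c37, Cyp2c50 and Cyp2c54 were higher by 1.05, 1.46, 1.05 and 1.20 on the log2 scale, with Cyp2c54 passing in 17 of 34 alternatives. Reads of the Gstm, Cyp2a and Cyp2c families may be split between near-identical copies.

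Cyp3a11 and Cyp4a14 went the other way. Cyp3a11 averaged 519 ± 137 TPM with S217879 and 1176 ± 402 TPM with vehicle (log2 difference -1.14, limma adjusted p = 2.82e-05). Cyp4a14, a fatty acid hydroxylase and target of PPARα, averaged 24.5 ± 16.9 TPM with S217879 and 180.6 ± 80.0 TPM with vehicle (log2 difference -2.96, limma adjusted p = 7.41e-07). Cyp2e1 thus stood between pericentral cytochromes that were far higher and others that were lower.

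Of the 20 further pericentral genes of transport and intermediary metabolism 3 were higher and 5 lower, beside 6.07% higher and 23.5% lower over all genes. The count of lower genes was thus near the share of all genes. Their median log2 difference was -0.17, beside -0.12 for all genes. Scaled values gave 7 higher and 7 lower, beside 26.6% and 27.1% of all genes. Blvrb, biliverdin reductase B, was higher at 294 ± 45.5 TPM with S217879, against 80.2 ± 20.7 TPM with vehicle (log2 difference 1.90), and Aldh1a1, a retinal dehydrogenase, was higher by 0.80. C6, a complement component, was lower at 28.9 ± 10.4 TPM with S217879, against 91.2 ± 25.3 TPM with vehicle (log2 difference -1.66), and Tgm2, Cib3 and the cation transporter Slc22a3 were lower by log2 differences of -0.78, -0.98 and -0.76. Without vehicle replicate 6, 9 of the 20 genes were lower (5194 over all genes), and other alternatives gave up to 13 (up to 9113 over all genes). Of 30 periportal genes 8 were higher and 3 lower, with a median of -0.02 (14 and 6 with scaled values), beside the same shares of all genes. Cyp2f2, the classical periportal cytochrome, averaged 1903 ± 175 TPM with S217879 and 449.7 ± 196 TPM with vehicle (log2 difference 2.21, limma adjusted p = 1.26e-08). Gldc of glycine cleavage and Etnppl were higher by 1.38 and 1.90, and the apolipoprotein Apoa4 was lower by a log2 difference of -2.84. Leaving out vehicle replicate 6 or 7 gave 8 or 5 lower periportal genes, and other alternatives gave up to 14.

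The enzymes around Glul and Oat were read from a list of 30 genes of glutamine, glutamate, ornithine and proline metabolism. Of 25 tested, 2 were higher and 8 lower, beside 6.07% higher and 23.5% lower over all genes, with a median log2 difference of -0.23. Scaled values gave 6 higher and 9 lower, beside 26.6% and 27.1% of all genes. Other alternatives gave up to 17 lower, and up to 9113 lower over all genes. The higher ones were Arg1 and Otc, the arginase and the ornithine transcarbamylase of the urea cycle, with log2 differences of 0.66 (SE 0.14) and 0.45 (SE 0.14). Got1, the cytosolic aspartate aminotransferase, averaged 67.2 ± 18.6 TPM with S217879 and 114 ± 26.2 TPM with vehicle (log2 difference -0.77, limma adjusted p = 8.57e-05). The glutamine carriers Slc1a5 and Slc38a1 were lower (log2 differences -0.48 and -0.44), whereas Gls2 did not pass the test (-0.16, SE 0.13).

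Slc1a1, a relative of Slc1a2, had low levels that were set apart between the groups. This transporter, known from neurons and epithelia, ranged from 0.524 to 1.57 TPM in S217879 livers and from 0.0445 to 0.102 TPM in vehicle livers, without overlap. Slc1a1 was under the minimum of 1 TPM, and it passed the lower minimum of 0.1 TPM only through the S217879 livers, so that no test of it is given.

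Along the path to ascorbate, steps before Rgn and Gulo differed in the other direction. Of 9 tested genes of ascorbate synthesis, uptake and recycling, leaving Rgn and Gulo aside, 5 were higher and 0 lower. Over all genes, 6.07% were higher and 23.5% lower. Scaled values gave 7 higher and 0 lower, beside 26.6% and 27.1% of all genes. Other alternatives gave up to 2 lower (up to 9113 over all genes). At an unadjusted p under 0.05 and with the Wilcoxon test 0 were lower too, and the median log2 difference was 0.52. Ugp2, which makes UDP-glucose, averaged 562 ± 165 TPM with S217879 and 274 ± 55.7 TPM with vehicle (log2 difference 1.01, limma adjusted p = 1.26e-06). Ugdh, which oxidises UDP-glucose to UDP-glucuronate, had 138 to 272 TPM in S217879 livers and 38.3 to 78.1 TPM in vehicle livers (log2 difference 1.87, SE 0.13, limma adjusted p = 1.57e-14). Akr1a1, which reduces glucuronate just before the Rgn step, averaged 414 ± 47.0 TPM with S217879 and 294 ± 63.2 TPM with vehicle (log2 difference 0.52, limma adjusted p = 0.00246). Gsto1 and Txnrd1, which can recycle oxidised ascorbate, were higher by 1.20 and 1.00. Genes of the first steps were thus higher in the same livers in which those of the last steps were lower.

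Cell type markers differed between the groups as well, and their part in the results was not tested. Their counts stand beside 6.07% higher and 23.5% lower over all genes, and 26.6% and 27.1% with scaled values. Of 12 general hepatocyte genes 1 was higher and 4 lower (3 and 5 with scaled values), with a summed level of 42840 to 69760 TPM in S217879 livers and 37390 to 81460 TPM in vehicle livers. Of 5 tested central vein endothelial markers (of 7) 2 were lower, Rspo3 and Vwf, with sums of 10.3 to 14.6 TPM in S217879 livers and 10.1 to 18.3 TPM in vehicle livers. Sinusoidal endothelial markers had 4 of 8 higher (6 with scaled values), with sums of 154 to 204.5 TPM in S217879 livers and 88.2 to 185 TPM in vehicle livers.

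Among markers of stellate cells, macrophages, bile duct cells and dividing cells, 0 were called higher by limma, as deposited or scaled, 0 by the Wilcoxon test and 0 at an unadjusted p under 0.05, and some were called lower. All 8 stellate cell and myofibroblast markers were lower as deposited (7 with scaled values, without Acta2, and 4 with the Wilcoxon test). Their sums were 202 to 380.2 TPM in S217879 livers and 268 to 498 TPM in vehicle livers. Macrophage markers had 5 of 8 lower, while Clec4f, Vsig4 and Cd5l of resident Kupffer cells did not pass, with overlapping sums of 282 to 579 TPM with S217879 and 326 to 711 TPM with vehicle. Of 4 tested cholangiocyte markers (of 6) 2 were lower, with sums of 89.4 to 243 TPM in S217879 livers and 178 to 466 TPM in vehicle livers. Of 4 tested proliferation markers (of 5) 3 were lower, with sums of 3.74 to 8.50 TPM with S217879 and 6.88 to 10.4 TPM with vehicle.

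Markers of lymphocytes and of other tissues were low or mostly did not pass. Of 4 tested lymphocyte markers (of 6) 0 were called by limma, 0 by the Wilcoxon test and 0 at an unadjusted p under 0.05, with sums of 18.9 to 174 TPM with S217879 and 22.6 to 456 TPM with vehicle. Of 2 tested adipocyte markers (of 5) 1 was lower, Fabp4, which did not pass with scaled values or with the Wilcoxon test. The 5 summed to 95.1 to 221 TPM in S217879 livers and 98.4 to 208 TPM in vehicle livers. Most of this came from Cidec, which fatty hepatocytes also express. Adipoq, Plin1 and Lep averaged under 0.1 TPM in each group. Skeletal muscle markers summed to at most 1.56 TPM with S217879 and 1.72 TPM with vehicle. Pancreas markers summed to at most 0.314 TPM with S217879 and 0.535 TPM with vehicle, and Cpa1 was listed at 0 in every library.

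Within a group, members were related by scaled values over 8 pairs in each group, 16 relations in all (permutation tests with 100000 resamples, two-sided). After adjustment 0 passed, against 5 at an unadjusted p under 0.05, and the lowest adjusted p was 0.0714. Glul and Axin2 had r = 0.78 in S217879 livers (n = 10, permutation p = 0.00502, adjusted p = 0.0714) with rho = 0.64 (permutation p = 0.0547, adjusted p = 0.152), and r was 0.49 without the 2 livers farthest from the median of Glul. Glul and Slc1a2 had r = 0.77 in vehicle livers (n = 10, permutation p = 0.00892, adjusted p = 0.0714) with rho = 0.73 (permutation p = 0.0202, adjusted p = 0.152), and r was 0.59 without 2 livers. Glul and Lgr5 had r = -0.57 in S217879 livers (permutation p = 0.0752, adjusted p = 0.138) and 0.74 in vehicle livers (permutation p = 0.0142, adjusted p = 0.076), and the difference between these was not tested.

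The genes whose scaled levels followed Glul most closely from liver to liver, as deviations from the group mean over all 20 libraries, were Tlr12 (r = 0.85), Pabpn1 (0.79), Ormdl3 (0.77), Sec14l2 (0.77) and Gm1821 (0.76), out of 13389 genes. These r values describe libraries that share the same 20 scale factors, and no test was made of them. Of the 5, Tlr12 alone was called lower, at 9.87 TPM with S217879 and 21.4 TPM with vehicle on average (log2 difference -1.10, limma adjusted p = 9e-08). Among the members Gulo stood closest to Glul (rank 29, r = 0.69), followed by Axin2 (rank 55, r = 0.67) and Tbx3 (rank 71, r = 0.64). Lhpp, Oat and Slc1a2 stood at ranks 143, 292 and 417, and Rgn and Cyp2e1 at ranks 2575 and 2977.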

How the data were processed

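The deposited table holds TPM made by the authors, for 49315 genes in 20 libraries. Per the labels' protocols, RNA came from a lipid tissue kit and libraries from a stranded kit with polyA capture. The submitters' processing notes name Trimmomatic 0.36, STAR 2.5.2b, featureCounts, Subread 1.5.2 and the build GRCm38. Neither says what each did, which annotation was used or how strand and multiple matches were handled. TPM keeps no depth, so errors are the spread between animals.

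Groups come from the treatment labels. The 13401 genes that average 1 TPM or more were compared as log2(TPM + 0.5) with limma 3.58.1 in R 4.3.3 (trend, robust), with Benjamini-Hochberg adjustment over all of them, and the steps were tested on simulated data. Fold changes are on that scale, which understates changes of low genes. The members and lists were chosen with earlier results of these data known. Genes named are all members and, of each list, those called with a log2 difference of 1 or more, otherwise the 2 called with the largest rise and the 2 with the largest fall. Not every gene so chosen is described. Named after their values were seen were Alb, Notum, Znrf3, Rnf43, Sp5, Tcf7, Nkd1, Zfp703, Myc, Rhbg, Cyp27a1, Slc13a3, Rnase4, Ang, Wnt2, Wnt4, Wnt9b, Lgr4, Ctnnb1, Aldh1a1, Tgm2, Cib3, Slc22a3, Gls2, Slc1a1, Slc1a5, Slc38a1, Akr1a1, Txnrd1, Adipoq, Plin1, Lep and Cidec. So were Clec4f, Vsig4, Cd5l, Acta2 and Cpa1. The 14 ratios, and leaving out libraries for them, were also chosen after values were seen. Alternatives were pseudocounts of 0.1 and 1, minimum means of 0.1 and 5 TPM or none, other scalings, array weights, a Wilcoxon rank-sum test and leaving out libraries.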

Additional observations from a re-analysis of the deposited data

How the results depend on the processing

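The 7 members called lower kept that call in every alternative that tested them (34, and 33 for Axin2), and the number called lower lay between 6 (minimum mean of 5 TPM, which leaves out Axin2) and 9 (rescaling without the 4 rRNA-type genes, where Tbx3 passed with an adjusted p just under 0.05; 0.05 to 0.728 over its 34 alternatives), with 7 to 8 when 1 library was left out. Counts over all genes moved far more. Genes called higher, 813 as deposited, were 3536 with quantile normalization, 3562 with median-of-ratios scaling and 1519 when rescaled without the 20 most abundant genes. Genes called lower, 3151 as deposited, were 1642 with a minimum mean of 5 TPM, 8147 without the 20 most abundant genes, 9113 without the 4 rRNA-type genes, 8023 with array weights and 7307 without vehicle replicates 6 and 7, and leaving out 1 library gave 2637 to 5194 lower (5194 without vehicle replicate 6) and 709 to 877 higher. The cause was not tested. The log2 difference of Cyp2e1 was -0.10 with quantile normalization, -0.031 without the rRNA-type genes, -0.19 with array weights, -0.14 without vehicle replicates 6 and 7 and -0.020 without replicate 6 (to 0.20 without vehicle replicate 8, over single libraries left out). That of Wnt2 was 0.13 with quantile and 0.029 with median-of-ratios scaling, and that of Zfp703 was 0.023 and 0.0007. None of these values passed the threshold. Of the 16 relations 14 passed by r with values as deposited, which keep the factor of each library, against 0 with scaled values. Not all of the 14 passed by rho. Among them Axin2 and Lgr5 in S217879 livers were related negatively (r = -0.78, permutation test, adjusted p = 0.0104). With scaled values that r was -0.69 (permutation test, adjusted p = 0.115). The number of reads per library is unknown, so that limits of depth at genes such as Lgr5 cannot be given. No paired analysis was possible because the animals are numbered separately and no number is shared between the groups. P-values measure only the spread between these animals.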
